A study of Mus musculus with 8 samples.

Results

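The genes described here encode ligands and receptors of the tumour necrosis factor (TNF) superfamily, the TRAF adaptors that carry their signals, and genes named for proteins that interact with TRAFs or for induction by TNF. They were chosen by name alone, from the gene names in the authors' deposited table (symbols that begin with Tnfrsf, Tnfsf, Traf and a digit, or Tnfaip and a digit, with Ltb, Lta, Tnf and Ltbr added and Tnfaip3 left out). The rule found 43 genes of 19321 named genes in that table. There were 11 ligands, 16 receptors, 7 TRAFs, 3 TRAF-interacting proteins and 6 Tnfaip genes.

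The cells were mouse pro-B cells, an early stage of the B lineage, made to grow in culture by transformation with the Abelson virus A-MuLV, and their total RNA was sequenced. The genotype, EBF1-dTAG_N, was the same in every library: the cells' own EBF1, a transcription factor needed for B-cell identity, was replaced by an introduced version with a dTAG degron. One group received 0.5 µM dTAG-13, a small molecule that sends proteins with this tag to degradation, and the other received the solvent DMSO. Treatment labels give 6 h for each, with 4 libraries per group described as biological replicates. The titles of the DMSO libraries read 0 h while their treatment label reads 6 h. If the titles are right, time also differs between the groups and cannot be told apart from treatment. Without cells that lack the tag, effects of the compound and of EBF1 loss cannot be told apart, and whether the line is 1 clone is not given in the sources used here.

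TNF superfamily ligands are mostly trimeric membrane proteins, some of which are cut from the cell surface. They bind receptors with cysteine-rich domains, and the receptors recruit TRAF proteins, which lead to the IKK complex and NF-kB and to MAP kinases. A subset of receptors carries death domains and can lead to caspase activation instead. In the B lineage the BAFF receptor and TACI serve survival and maturation of later stages, and lymphotoxin made by lymphocytes organises lymphoid tissue.

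The sequences around the start sites of 5 members are shown because these genes include the largest called falls and rises and the gene cluster of Ltb, Tnf and Lta on chromosome 17. Each runs 5′ to 3′ on the strand of the gene, from 250 bases before to 50 bases after the annotated start (RefSeq, GRCm38.p6). Traf4 lies at chr11:78165501-78165800 (minus strand), Tnfrsf1b at chr4:145246821-145247120 (minus), Ltb at chr17:35194257-35194556 (plus), Tnf at chr17:35201958-35202257 (minus) and Lta at chr17:35205302-35205601 (minus). Capitals mark a match to the NF-kB consensus in Ltb and to the EBF core in Tnf.
Traf4: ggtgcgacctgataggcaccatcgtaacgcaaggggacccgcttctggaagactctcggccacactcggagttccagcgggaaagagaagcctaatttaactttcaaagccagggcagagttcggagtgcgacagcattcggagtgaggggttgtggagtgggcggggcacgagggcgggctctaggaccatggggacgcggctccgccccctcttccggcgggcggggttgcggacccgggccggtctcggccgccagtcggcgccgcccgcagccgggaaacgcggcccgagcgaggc
Tnfrsf1b: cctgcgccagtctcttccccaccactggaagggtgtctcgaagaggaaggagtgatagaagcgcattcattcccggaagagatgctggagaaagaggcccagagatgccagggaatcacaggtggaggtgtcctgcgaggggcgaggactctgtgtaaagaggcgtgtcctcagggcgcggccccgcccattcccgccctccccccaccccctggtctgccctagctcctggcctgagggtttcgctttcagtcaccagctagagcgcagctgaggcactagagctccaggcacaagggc
Ltb: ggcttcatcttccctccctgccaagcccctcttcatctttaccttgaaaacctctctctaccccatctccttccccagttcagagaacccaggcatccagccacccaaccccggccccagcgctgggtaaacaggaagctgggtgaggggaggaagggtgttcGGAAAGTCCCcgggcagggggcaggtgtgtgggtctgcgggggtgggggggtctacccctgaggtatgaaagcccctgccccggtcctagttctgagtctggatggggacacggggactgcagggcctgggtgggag
Tnf: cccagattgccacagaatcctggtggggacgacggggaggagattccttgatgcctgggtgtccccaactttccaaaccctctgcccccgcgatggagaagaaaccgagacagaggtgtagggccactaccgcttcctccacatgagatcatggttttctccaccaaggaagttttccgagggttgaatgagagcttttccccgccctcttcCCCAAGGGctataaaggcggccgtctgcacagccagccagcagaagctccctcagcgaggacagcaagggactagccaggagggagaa
Lta: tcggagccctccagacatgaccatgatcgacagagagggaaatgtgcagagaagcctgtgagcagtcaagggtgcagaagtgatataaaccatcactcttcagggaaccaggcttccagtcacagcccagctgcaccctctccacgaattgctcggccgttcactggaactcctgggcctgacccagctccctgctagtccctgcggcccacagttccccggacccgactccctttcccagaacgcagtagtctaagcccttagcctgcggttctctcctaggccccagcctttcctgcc

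Of the 43 members, 36 had a window in that table, and these were searched on both strands for the EBF core CCCNNGGG and the NF-kB consensus, matches of which may overlap. The EBF core occurred in 13.7% of all 32851 windows of this length and the NF-kB consensus in 5.8%. Among the 4 members with a window whose exonic RNA fell, Traf6 held the EBF core. Tnf and Traf3 held it among the 7 that rose, and Tnfrsf14 among the 15 tested members that were not called. The NF-kB consensus occurred in Ltb and Traf3 among those that rose and in Tnfrsf9 among those not called. Among members with a window but too few exonic reads to test, Tnfsf13 held the EBF core. Tnfaip2 and Tnfrsf8 of that group held the NF-kB consensus. In Tnf the match CCCAAGGG began at base -38 from the RefSeq start, and in Ltb the match GGAAAGTCCC began at base -87. For Ltb the gene coordinates given below begin at a different base, 35194439, which lies within this window. The windows of Traf4, Tnfrsf1b and Lta held neither.

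The libraries held 28982316 to 38999496 exonic reads each, and the depth of the groups did not separate (two-sided exact permutation p = 0.2, n = 4 each). Ebf1 itself measured 816, 757, 723 and 773 exonic CPM (counts scaled to the TMM-adjusted library size) in the dTAG-13 libraries, against 639, 608, 615 and 628 CPM in the DMSO libraries. The exonic log2 fold change of Ebf1 was 0.30 ± 0.04 (SE, edgeR adjusted p = 2.12e-07). In its introns the change was 0.09 ± 0.11 and was not called (SE, edgeR adjusted p = 0.665). The RNA does not measure degradation of the protein, and reads of the introduced and the chromosomal gene cannot be separated. Markers of pro-B cells were present in all libraries, with a summed level of the 10 markers of 1372 to 1455 CPM after dTAG-13, against 2313 to 2366 CPM in DMSO. Markers of T cells, which also express lymphotoxin, summed to 0.204 to 0.657 CPM after dTAG-13 and 0.183 to 0.587 CPM in DMSO, and 5 of 7 (Cd3e, Cd3d, Cd3g, Cd4 and Cd8a) were at 0. Those of NK cells summed to 0.765 to 1.09 CPM after dTAG-13, against 0.138 to 0.656 CPM in DMSO, with Ncr1, Gzmb and Eomes at 0 of 5. The 8 myeloid markers summed to 3.52 to 4.34 CPM after dTAG-13 and 4.08 to 4.62 CPM in DMSO, most of it Cd68, with Elane and Ly6g at 0. Dendritic, stromal and erythroid markers each summed to at most 0.383 CPM in any library. The part of the marker changes in the results was not tested, and in bulk RNA fewer cells of a type and less RNA per cell cannot be told apart.

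Within 6 h of dTAG-13 the RNA of the adaptor Traf4 fell 2.46-fold, while Ltb, the lymphotoxin beta chain, rose 2.24-fold and Tnfrsf1b, the TNF receptor without a death domain, rose 1.64-fold. In all, 31 members had enough exonic reads for a test, 13 of these changed (41.9%), and 8 were higher and 5 lower. Of all 12889 genes tested 28.3% changed, 14.3% higher and 14.0% lower (edgeR quasi-likelihood F test, Benjamini-Hochberg adjusted p below 0.05). The members' median log2 fold change was 0.09, beside -0.00 for all tested genes, and their median size regardless of direction was 0.21, beside 0.13. A change of at least 0.5 on the log2 scale was called for 5 members, Traf4, Ltb, Lta, Tnfrsf1b and Tnfaip8l2, where 7.6% of all tested genes had one. The libraries of the groups did not overlap for 14 of the 31, against 27.7% of all tested genes. The authors' deposited table called the same 13 members in exonic counts, each in the same direction.

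**Figure D1:**
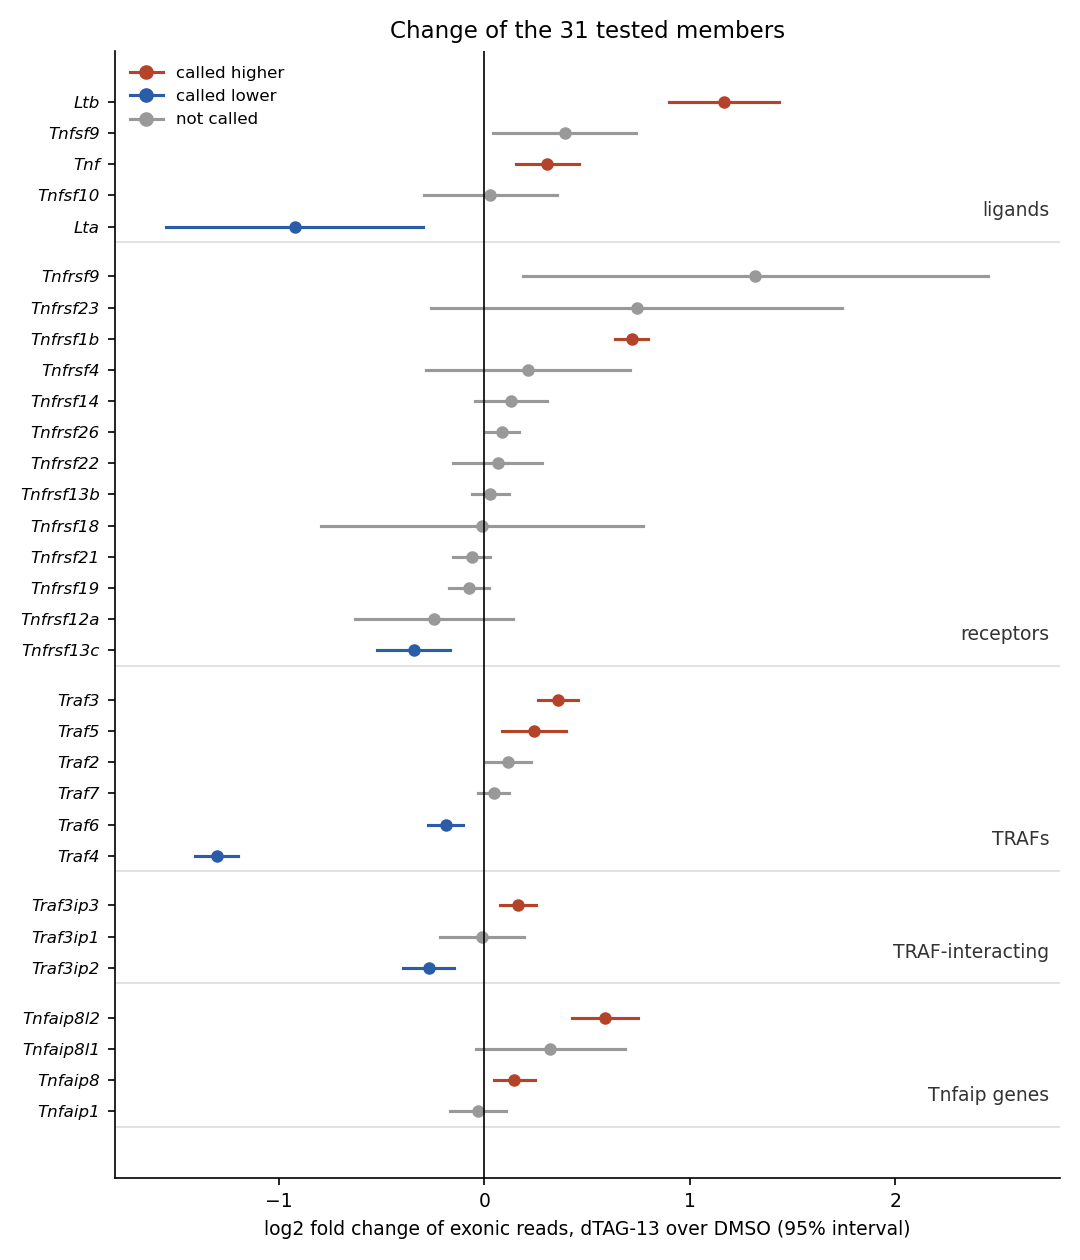
Points give the log2 fold change of exonic reads, dTAG-13 over DMSO, of the 31 tested members, grouped by role, and lines the 95% interval of each, which is not adjusted for the number of genes. Colour marks the 8 members called higher, the 5 called lower and the 18 not called, and Traf4 at -1.30 and Ltb at 1.17 stand at the ends of the called changes.

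The 3 neighbouring ligand genes on chromosome 17 did not move alike: Ltb and Tnf rose and Lta fell. Ltb encodes lymphotoxin beta, which holds lymphotoxin alpha at the cell surface in a mixed trimer (ENSMUSG00000024399.5, chr17:35194439-35196320, plus strand, GRCm38). It measured 8.51, 7.68, 6.44 and 7.06 exonic CPM in the dTAG-13 libraries, against 3.32, 3.21, 3.55 and 3.14 CPM in the DMSO libraries. Every dTAG-13 library lay above every DMSO library, with a log2 fold change of 1.17 ± 0.13 (SE, edgeR adjusted p = 5.67e-08). Tnf, the founding ligand of the family (ENSMUSG00000024401.14, chr17:35199381-35202007, minus strand), measured 21.3, 22.4, 21.4 and 24.5 CPM after dTAG-13, against 18.9, 19.9, 18.1 and 15.6 CPM in DMSO. The groups were again separate, with a smaller log2 fold change of 0.31 ± 0.08 (SE, edgeR adjusted p = 0.00241).

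Lta, which encodes lymphotoxin alpha (ENSMUSG00000024402.5, chr17:35203165-35205351, minus strand), measured 1.088, 0.995, 0.623 and 0.514 CPM after dTAG-13, against 1.45, 2.14, 1.096 and 1.49 CPM in DMSO, or 18 to 40 reads per dTAG-13 library and 42 to 62 per DMSO library. The highest dTAG-13 library lay just below the lowest DMSO library, with a log2 fold change of -0.92 ± 0.30 (SE, edgeR adjusted p = 0.0224). The call of Lta was lost without dTAG-13 replicate 3 (edgeR adjusted p = 0.073), dTAG-13 replicate 4 (0.0775) or DMSO replicate 2 (0.109), and in whole-gene counts, which take exons and introns as one (0.0598). Tnf lies 3061 bases from Ltb and 1158 bases from Lta. As a description, Ltb made up 24.2% ± 2.51 of the exonic CPM of the 3 genes after dTAG-13 and 14.5% ± 1.36 in DMSO (SD, n = 4 each). Tnf made up 73.1% ± 3.36 after dTAG-13 and 78.9% ± 1.24 in DMSO, and Lta 2.63% ± 0.889 after dTAG-13 and 6.69% ± 1.58 in DMSO (SD, n = 4 each). Ltb and Lta held 20 and 25 intronic reads over all 8 libraries and could not be tested there.

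Of the other ligands, Tnfsf9, the ligand of the co-stimulatory receptor 4-1BB, measured 3.81, 3.27, 4.15 and 4.14 CPM after dTAG-13, against 2.45, 2.52, 3.13 and 3.54 CPM in DMSO. These groups overlapped, and the log2 fold change of 0.39 ± 0.17 was not called (SE, edgeR adjusted p = 0.0917), although it passed without DMSO replicate 4 (edgeR adjusted p = 0.0449). Tnfsf10, the death ligand TRAIL, averaged 3.62 ± 0.468 CPM after dTAG-13 and 3.55 ± 0.243 CPM in DMSO (SD, n = 4 each, log2 fold change 0.03, 95% interval -0.30 to 0.35). The remaining 6 ligands had too few exonic reads to test. They were Tnfsf11 (RANKL) with 44 exonic reads over all 8 libraries, Tnfsf13b (BAFF) with 41, Tnfsf12 (TWEAK) with 8, Tnfsf8 (CD30 ligand) with 4, and Tnfsf13 (APRIL) and Tnfsfm13 with 2 each. Tnfsf12, Tnfsf13 and Tnfsfm13 overlap on the same strand, so their reads are uncertain.

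**Figure D2:**
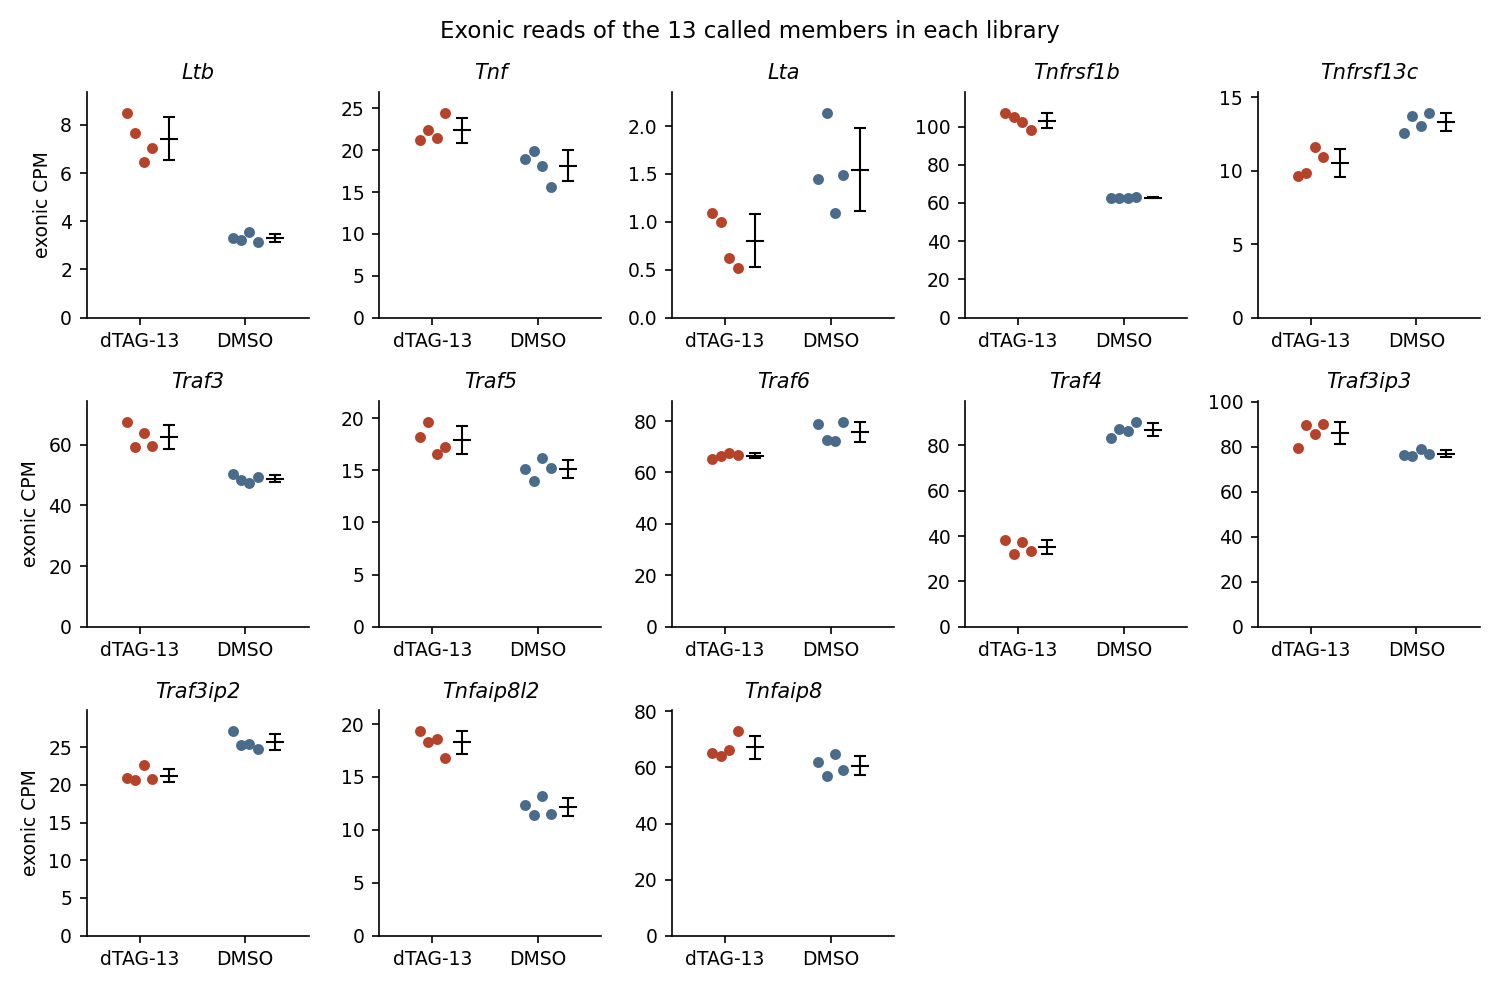
Each panel shows exonic CPM (linear axis from 0) of 1 of the 13 called members, with 1 point per library, dTAG-13 left and DMSO right, and the mean and SD of 4 libraries beside the points. The groups are separate in every panel except Tnfaip8, and the Lta groups are separated by the narrow gap between 1.088 CPM after dTAG-13 and 1.096 CPM in DMSO.

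Among the receptors 13 of 16 were tested, and 2 changed (15.4%), beside 28.3% of all tested genes. Tnfrsf1b encodes TNFR2, which binds TNF and lymphotoxin alpha and signals through TRAF2 (ENSMUSG00000028599.10, chr4:145213463-145246870, minus strand). Its exonic reads measured 107, 105, 102 and 98.3 CPM after dTAG-13, against 62.9, 62.8, 62.6 and 63.0 CPM in DMSO. The groups lay far apart and the DMSO libraries nearly coincided, with a log2 fold change of 0.72 ± 0.04 (SE, edgeR adjusted p = 5.29e-14). Tnfrsf8 (CD30), 20267 bases away on the same strand, held 5 exonic reads in all. Tnfrsf1a and Ltbr, the genes of the other TNF receptor and of the lymphotoxin beta receptor, had no row in the authors' deposited table. They are therefore not among the 43. In the deposited counts both listed 0 whole-gene reads in all 8 libraries. That allows up to 3 reads per library, or 0.0769 to 0.104 CPM at these exonic depths, counting error only.

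Of the receptors for BAFF, Tnfrsf13c was called lower and Tnfrsf13b was not called. Tnfrsf13c, the BAFF receptor (ENSMUSG00000068105.10), measured 9.63, 9.85, 11.6 and 10.9 CPM after dTAG-13, against 12.6, 13.7, 13.05 and 13.9 CPM in DMSO. The groups did not overlap, and the RNA fell by 0.34 ± 0.09 on the log2 scale (SE, edgeR adjusted p = 0.0031). Tnfrsf13b, which encodes TACI, a receptor for BAFF and APRIL, measured 70.1, 71.0, 74.0 and 64.5 CPM after dTAG-13, against 66.0, 69.7, 70.5 and 67.8 CPM in DMSO. Its groups overlapped, and the log2 fold change was 0.03 with a 95% interval of -0.06 to 0.12 (edgeR adjusted p = 0.688). As a description, the log2 ratio of Tnfrsf13c to Tnfrsf13b reads within libraries averaged -2.74 after dTAG-13 and -2.36 in DMSO, without overlap. This pair was chosen with the values known, so a test of the ratio could not decide whether the 2 changes differ. Tnfrsf17 (BCMA), the third receptor of this ligand group, had 7 exonic reads over all libraries.

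Tnfrsf9, which encodes 4-1BB, was low, at 0.190, 0.408, 0.389 and 0.429 CPM after dTAG-13, against 0.0346, 0.104, 0.313 and 0.0811 CPM in DMSO. The groups overlapped through DMSO replicate 3, and the log2 fold change of 1.32 ± 0.55 was not called (SE, edgeR adjusted p = 0.0772). It passed without DMSO replicate 3 (log2 fold change 2.21, edgeR adjusted p = 0.0133) and in whole-gene counts (1.48, 0.0214). Tnfrsf9 and Tnfrsf23, one of the mouse decoy receptors for TRAIL, reached the minimum of the filter in 3 dTAG-13 libraries but in 1 DMSO library, so their presence among tested genes depended on the group where they were higher. Tnfrsf23 had a log2 fold change of 0.74 with an interval of -0.26 to 1.74.

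The 8 further tested receptors were not called, with log2 fold changes between -0.24 for Tnfrsf12a (Fn14, the receptor of TWEAK) and 0.21 for Tnfrsf4 (OX40). At levels above 30 CPM the intervals were narrow. Tnfrsf21 (DR6, a death receptor) had -0.06 with an interval of -0.15 to 0.03, Tnfrsf19 (TROY) -0.08 with -0.17 to 0.02, and Tnfrsf26 0.09 with 0.01 to 0.17 (edgeR adjusted p = 0.105). The Tnfrsf26 libraries did not overlap between groups, although 76.21 CPM, the lowest after dTAG-13, stood next to 76.16 CPM, the highest in DMSO. Tnfrsf14 (HVEM) had a log2 fold change of 0.13, Tnfrsf22, another mouse TRAIL decoy receptor, 0.06, and Tnfrsf18 (GITR) -0.01 with an interval as wide as -0.80 to 0.77. Tnfrsf21 passed without DMSO replicate 1 (edgeR adjusted p = 0.0465) and Tnfrsf19 in whole-gene counts (edgeR adjusted p = 0.0179). Of the receptors, Tnfrsf8, Tnfrsf10b (DR5) and Tnfrsf17 were not tested, with 3 to 7 exonic reads each.

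TRAFs and TRAF-interacting proteins changed in both directions, with 3 higher and 3 lower of 9 tested, where 28.3% of all tested genes changed. Traf4, a family member better known from cell polarity and migration than from TNF receptors (ENSMUSG00000017386.10, chr11:78158499-78165589, minus strand), measured 38.4, 32.2, 37.3 and 33.3 CPM after dTAG-13, against 83.5, 87.3, 86.5 and 90.6 CPM in DMSO. The groups were widely separate, and the RNA fell by 1.30 ± 0.05 on the log2 scale (SE, edgeR adjusted p = 3.89e-17). Traf3, which restrains the non-canonical NF-kB pathway, measured 67.7, 59.1, 63.8 and 59.6 CPM after dTAG-13, against 50.2, 48.4, 47.4 and 49.4 CPM in DMSO, with separate groups and a log2 fold change of 0.36 ± 0.05 (SE, edgeR adjusted p = 8.82e-07). Traf6, the adaptor of interleukin-1 and Toll-like receptors, averaged 66.6 ± 1.00 CPM after dTAG-13 and 75.9 ± 3.92 CPM in DMSO (SD, n = 4 each, log2 fold change -0.19, edgeR adjusted p = 0.000978).

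Traf5, a close relative of Traf2 and Traf3 in receptor signalling, averaged 17.9 ± 1.35 CPM after dTAG-13 and 15.1 ± 0.895 CPM in DMSO (SD, n = 4 each, log2 fold change 0.24, edgeR adjusted p = 0.0161). Its call was lost without dTAG-13 replicate 2 (edgeR adjusted p = 0.0804), without DMSO replicate 2 (0.0595) and in whole-gene counts (0.0526). Traf2, the adaptor of TNFR2, had 32.2 to 33.9 CPM after dTAG-13 and 29.0 to 32.0 CPM in DMSO. These groups were separate, but its log2 fold change of 0.12 was not called (edgeR adjusted p = 0.111). Traf7, which differs from the others by WD40 repeats, changed by 0.04 with an interval of -0.03 to 0.12. Traf1, itself known as an NF-kB target, had 47 exonic reads over all libraries and was not tested.

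Traf3ip2, which encodes the interleukin-17 receptor adaptor Act1, averaged 21.3 ± 0.915 CPM after dTAG-13 and 25.7 ± 1.06 CPM in DMSO (SD, n = 4 each, log2 fold change -0.27, edgeR adjusted p = 0.00101). Traf3ip3, a lymphocyte protein found as a TRAF3 partner, averaged 86.2 ± 5.02 CPM after dTAG-13 and 77.0 ± 1.43 CPM in DMSO (SD, n = 4 each, log2 fold change 0.16, edgeR adjusted p = 0.00453). Traf3ip1, known as a ciliary transport protein, was not called at -0.01 with an interval of -0.22 to 0.19. Genes on the opposite strand overlap Traf2, Traf3, Traf5, Traf7, Traf3ip2 and Traf3ip3, and outside this group Tnfaip8, Tnfaip8l1, Tnfsf9, Tnfrsf9, Tnfrsf13b, Tnfrsf18, Tnfrsf19, Tnfrsf22, Tnfrsf23 and Tnfrsf26 among the tested members. Rab26 overlaps Traf7 on the same strand, a microRNA gene and a pseudogene overlap Traf5, and microRNA genes overlap Lta and Ltb. The strand setting of the counting is not given in the sources used here, so reads of these pairs cannot be told apart.

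Among the Tnfaip genes 2 of 4 tested rose and none fell, where 14.3% of all tested genes rose and 14.0% fell. Tnfaip8l2, also called TIPE2 and known as a brake on immune cell activation, measured 19.4, 18.3, 18.6 and 16.8 CPM after dTAG-13, against 12.4, 11.4, 13.2 and 11.5 CPM in DMSO. Its groups were separate, with a log2 fold change of 0.59 ± 0.08 (SE, edgeR adjusted p = 9.38e-07). Its paralog Tnfaip8 had 64.3 to 73.2 CPM after dTAG-13 and 57.0 to 64.7 CPM in DMSO, so the groups overlapped, with a log2 fold change of 0.15 ± 0.05 (SE, edgeR adjusted p = 0.0229). That call was lost without dTAG-13 replicate 4 (edgeR adjusted p = 0.101), DMSO replicate 2 (0.0985) or DMSO replicate 4 (0.0764) and in whole-gene counts (0.0566). Tnfaip8l1, a further paralog, had a log2 fold change of 0.32 that was not called (interval -0.04 to 0.68), and Tnfaip1, a cullin adaptor, one of -0.03. Tnfaip2 and Tnfaip8l3 had 1 and 0 exonic reads over all libraries.

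When the exonic change was tested against 1.5-fold in place of 0, Traf4, Tnfrsf1b and Ltb were called and the other 10 were not, where 3.13% of all tested genes were called (edgeR). The calls of those 3 and of Tnf, Tnfrsf13c, Traf3, Traf6, Traf3ip2, Traf3ip3 and Tnfaip8l2 passed with each of the 8 libraries left out in turn.

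Per length of exon, the change reordered the most abundant members. Traf4 was at rank 9 after dTAG-13 with 10.7 ± 0.911 exonic CPM per kb of annotated exon and at rank 1 in DMSO with 26.4 ± 0.883 (SD, n = 4 each). Tnfrsf1b was at rank 1 after dTAG-13 with 27.0 ± 1.01 CPM per kb and at rank 6 in DMSO with 16.5 ± 0.0379 (SD, n = 4 each). Traf7, Tnfrsf13b, Tnfrsf26 and Tnfrsf21 lay between, at 26.1, 24.7, 23.9 and 22.1 CPM per kb after dTAG-13 and at 25.3, 24.2, 22.5 and 23.1 CPM per kb in DMSO. After dTAG-13 the ranges of Tnfrsf1b (25.7 to 28.1 CPM per kb) and Traf7 (25.7 to 26.5) overlapped, as did those of Traf7 and Tnfrsf13b and of Tnfrsf13b and Tnfrsf26. In DMSO each of the first 5 in order overlapped its next neighbour among those 5, while all of them lay above Tnfrsf1b. Tnf was the most abundant ligand in both groups, with 13.7 CPM per kb after dTAG-13 and 11.1 CPM per kb in DMSO. After dTAG-13 Ltb, Tnfsf9, Tnfsf10 and Lta followed in this order at 4.90, 2.98, 0.687 and 0.582 CPM per kb, and the ranges of Tnfsf10 (0.578 to 0.761) and Lta (0.372 to 0.787) overlapped. In DMSO the order was Tnfsf9, Ltb, Lta and Tnfsf10 at 2.26, 2.18, 1.12 and 0.674 CPM per kb, and the ranges of Tnfsf9 and Ltb overlapped. Tnfrsf23 had the lowest mean of the tested members at 0.0822 CPM per kb after dTAG-13 and 0.0484 CPM per kb in DMSO. Its range overlapped that of Tnfrsf9 in both groups, and Tnfrsf9 averaged 0.130 CPM per kb after dTAG-13 and 0.0489 CPM per kb in DMSO. Exon lengths came from an annotation in which 34 of the 43 carry the same gene version as in the counts.

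**Figure D3:**
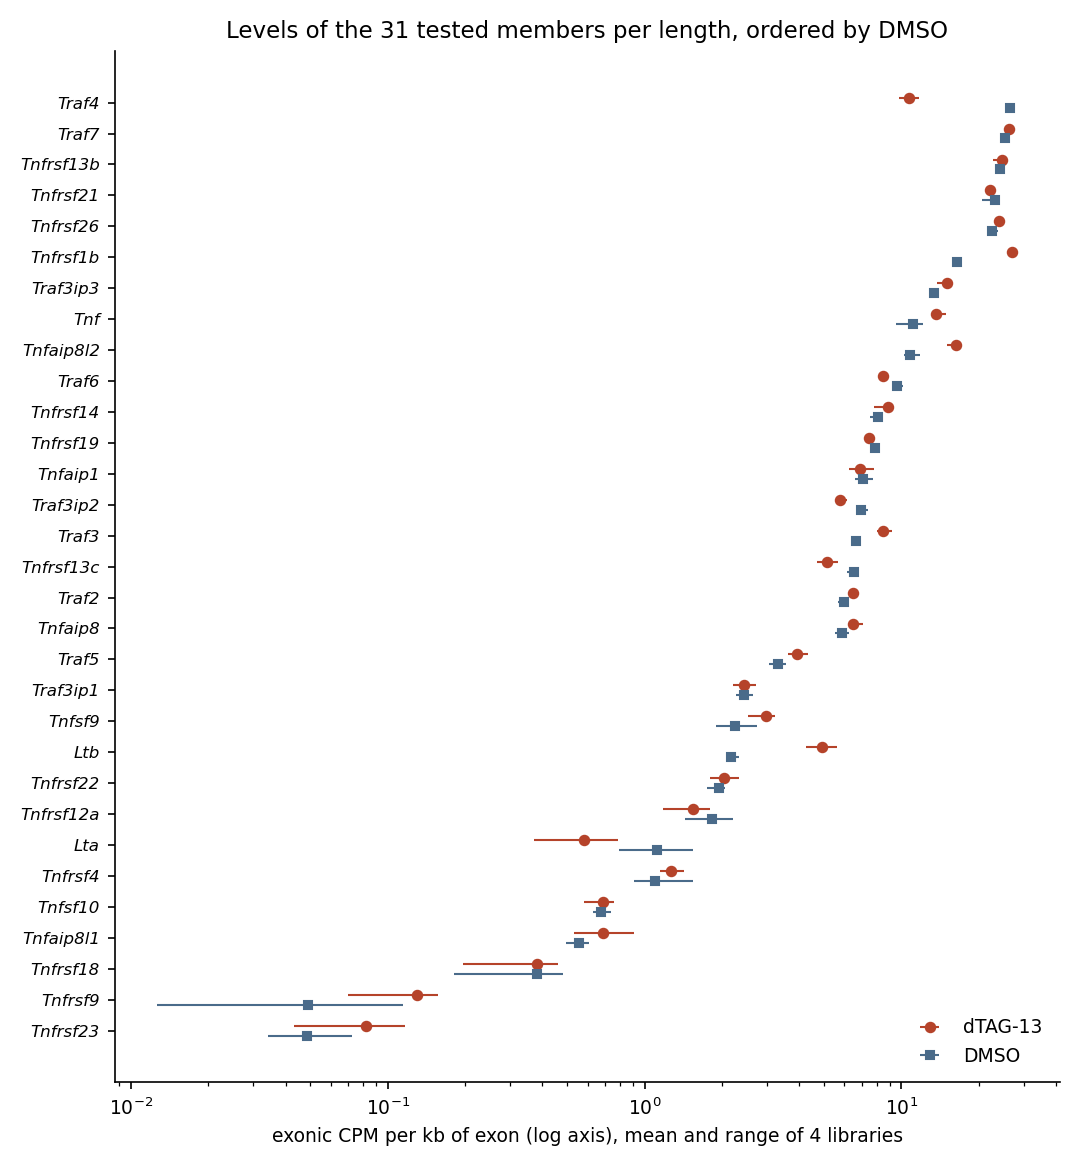
The plot gives exonic CPM per kb of exon on a log axis for the 31 tested members, ordered by their level in DMSO, with dTAG-13 drawn above DMSO for each gene. Points are means and lines the range of 4 libraries, and Traf4, Tnfrsf1b, Ltb and Tnfaip8l2 show ranges that stand well apart.

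Reads in introns, which come mostly from unspliced RNA, showed the changes of Traf4 and Tnfrsf1b at nearly the same size. Of 28 members tested there 9 changed (32.1%), 6 higher and 3 lower, beside 16.8% of all 11229 genes tested, 8.26% higher and 8.5% lower (edgeR, adjusted p below 0.05). A called change of at least 0.5 on the log2 scale was found for 4 of the 28, Traf4, Tnfrsf1b, Tnfaip8l2 and Tnfrsf9, where 7.41% of all tested genes had one. Of these Tnfrsf9 reached the filter's minimum in 4 dTAG-13 libraries and 1 DMSO library, so it was tested only through the group where it was higher. The groups did not overlap for 7, against 19.5% of all tested genes. Traf4 introns measured 12.5, 10.5, 12.3 and 12.03 intronic CPM after dTAG-13, against 31.9, 30.5, 29.7 and 24.4 CPM in DMSO. The groups were separate, and the intronic reads fell by 1.30 ± 0.13 on the log2 scale (SE, edgeR adjusted p = 3.16e-08). Tnfrsf1b introns measured 132, 130, 131 and 127 CPM after dTAG-13, against 78.7, 67.6, 89.2 and 81.7 CPM in DMSO. These groups too were separate, with a log2 fold change of 0.71 ± 0.07 (SE, edgeR adjusted p = 9.03e-08).

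The other members called in introns were mostly those called in exons. Traf3 changed by 0.33 (edgeR adjusted p = 0.000861), Traf3ip3 by 0.20 (0.0136), Tnfaip8 by 0.32 (0.0111), Tnfaip8l2 by 0.90 (0.0333) and Traf6 by -0.33 (0.0218) on the log2 scale. Tnfaip8l2 introns measured 6.01, 7.29, 4.95 and 4.30 CPM after dTAG-13, against 1.59, 2.86, 2.99 and 4.44 CPM in DMSO. One DMSO library reached into the dTAG-13 group, and the call was lost in 5 of the 8 fits without 1 library, with edgeR adjusted p up to 0.14 (without dTAG-13 replicate 2). Traf6 lost its intronic call without dTAG-13 replicates 1 or 2 or DMSO replicates 1 or 4, at adjusted p between 0.0616 and 0.0988.

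Tnfrsf9 and Tnfrsf19 were called in introns and not in exons, a difference that was not itself called. Tnfrsf9 introns measured 1.66, 1.03, 2.06 and 2.55 CPM after dTAG-13, against 0.113, 1.43, 0.460 and 0.522 CPM in DMSO. The groups overlapped through DMSO replicate 2, with a log2 fold change of 1.56 ± 0.52 (SE, edgeR adjusted p = 0.0389). The call was kept only without dTAG-13 replicate 2 or DMSO replicate 2 among the 8 fits without 1 library, with adjusted p up to 0.135 otherwise. It was lost in DESeq2 (adjusted p = 0.0615) and with the replicate number as a block (0.0525). Tnfrsf9 overlaps Camta1 on the opposite strand. Tnfrsf19 introns averaged 92.3 ± 4.90 CPM after dTAG-13 and 114 ± 15.96 CPM in DMSO (SD, n = 4 each, log2 fold change -0.31, edgeR adjusted p = 0.00957). Without DMSO replicates 1 or 3 that adjusted p was 0.0666 and 0.0705. The authors' deposited table also called 9 members in introns, 8 of them the same and in the same direction, with Tnfrsf21 in place of Tnfrsf9.

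The exonic and the intronic change differed for 0 of the 26 members tested in both, against 0.309% of all 10026 genes (edgeR interaction test, adjusted p below 0.05). At an unadjusted p below 0.05 there were 3, Tnfaip8, Tnfrsf19 and Tnfrsf22, with exonic minus intronic log2 changes of -0.18, 0.22 and -0.53 (edgeR adjusted p = 0.545, 0.586 and 0.592). No other tool was run on this difference. The difference was -0.02 for Traf4, with a 95% interval of -0.27 to 0.23, and -0.00 for Tnfrsf1b, with -0.17 to 0.16. For Tnf, with 12 to 31 intronic reads per library, it was 0.06 with an interval as wide as -0.51 to 0.63. As a description, across the 26 genes, which share the libraries and are not replicates, the changes had r = 0.94 and rho = 0.92, and 22 had the same sign. These genes include Tnfrsf9, which passed both filters through the group where it was higher.

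**Figure D4:**
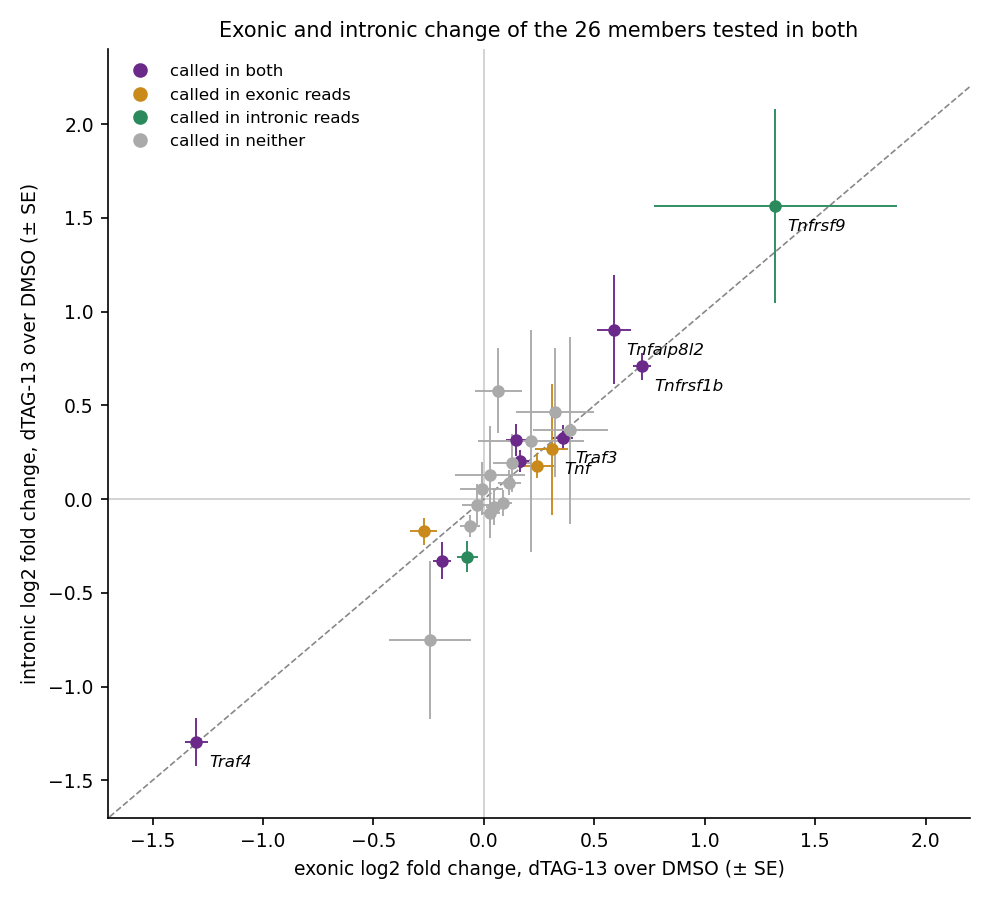
The log2 fold change (dTAG-13 over DMSO) of exonic reads is plotted against that of intronic reads for the 26 members tested in both, with SE bars and a dashed line of equal change. Traf4 at -1.30 on both axes and Tnfrsf1b at 0.72 and 0.71 lie on the line, and Tnfrsf9 has the widest bars among the called members.

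Of 55 tested genes that act with these ligands and receptors under other names, 18 rose and 5 fell in exonic reads (edgeR, adjusted p below 0.05), with a median log2 fold change of 0.05, where 28.3% of all tested genes changed, 14.3% higher and 14.0% lower. In the IKK and NF-kB list 6 of 12 rose and none fell. Without DMSO replicate 3 only 3 rose, and without dTAG-13 replicate 2 there were 4 that rose and 1 that fell. Rel, an NF-kB subunit of lymphocytes, averaged 135 ± 8.38 CPM after dTAG-13 and 105 ± 6.14 CPM in DMSO (SD, n = 4 each, log2 fold change 0.37). Nfkb2, the precursor of the non-canonical subunit, changed by 0.28, the kinase gene Ikbkb by 0.16 and Nfkb1 by 0.13. The further called genes of this list were Relb at 0.30 and Ikbkg at 0.14. The 6 genes not called included Nfkbia at -0.06.

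Of 24 receptor-proximal genes 4 rose and 1 fell, where 14.3% of all tested genes rose and 14.0% fell. Cflar, which encodes the caspase-8 inhibitor FLIP, changed by 0.41, Casp8 itself by 0.33 and their adaptor Fadd by 0.36 on the log2 scale. Rbck1, which encodes HOIL-1 of the linear ubiquitin ligase, fell by 0.17. In the MAP kinase arm 4 of 9 rose and 1 fell, but in whole-gene counts 3 rose and 0 fell. Jun, an AP-1 subunit, averaged 52.5 ± 4.14 CPM after dTAG-13 and 26.3 ± 1.27 CPM in DMSO (SD, n = 4 each, log2 fold change 1.00, edgeR adjusted p = 9.8e-14), while Mapk14 (p38) changed by 0.24, Mapk9 (JNK2) by 0.15 and Map2k3 by -0.18. Among superfamily members under other symbols Relt rose by 0.43 and Cd40 was not called at 0.215 CPM after dTAG-13 and 0.398 CPM in DMSO, while Fas, Fasl, Cd40lg, Cd27, Cd70, Ngfr, Eda, Edar and Eda2r were too low to test.

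Of 8 tested genes listed for TNF shedding and regulation, a list that also holds Furin and Pcsk7, 3 rose and 3 fell. Of all tested genes 14.3% rose and 14.0% fell. Rhbdf2, which encodes iRhom2, needed to bring the TNF-cutting protease ADAM17 to the surface, averaged 18.1 ± 0.925 CPM after dTAG-13 and 49.5 ± 1.33 CPM in DMSO (SD, n = 4 each), 2.73-fold lower (log2 fold change -1.45 ± 0.05 SE, edgeR adjusted p = 1.3e-17). Adam17 itself was not called at 0.11. Zfp36, which encodes tristetraprolin, a factor that speeds decay of Tnf mRNA, averaged 27.1 ± 1.597 CPM after dTAG-13 and 41.5 ± 1.97 CPM in DMSO (SD, n = 4 each, log2 fold change -0.62). Zfp36l1 changed by -0.26, while Zfp36l2 was called higher at 0.12 (edgeR adjusted p = 0.0277). Adam10, a further sheddase, changed by 0.24. Tested against 1.5-fold, 2 of the 55 were called, Jun higher and Rhbdf2 lower, where 3.13% of all tested genes were called (edgeR).

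**Figure D5:**
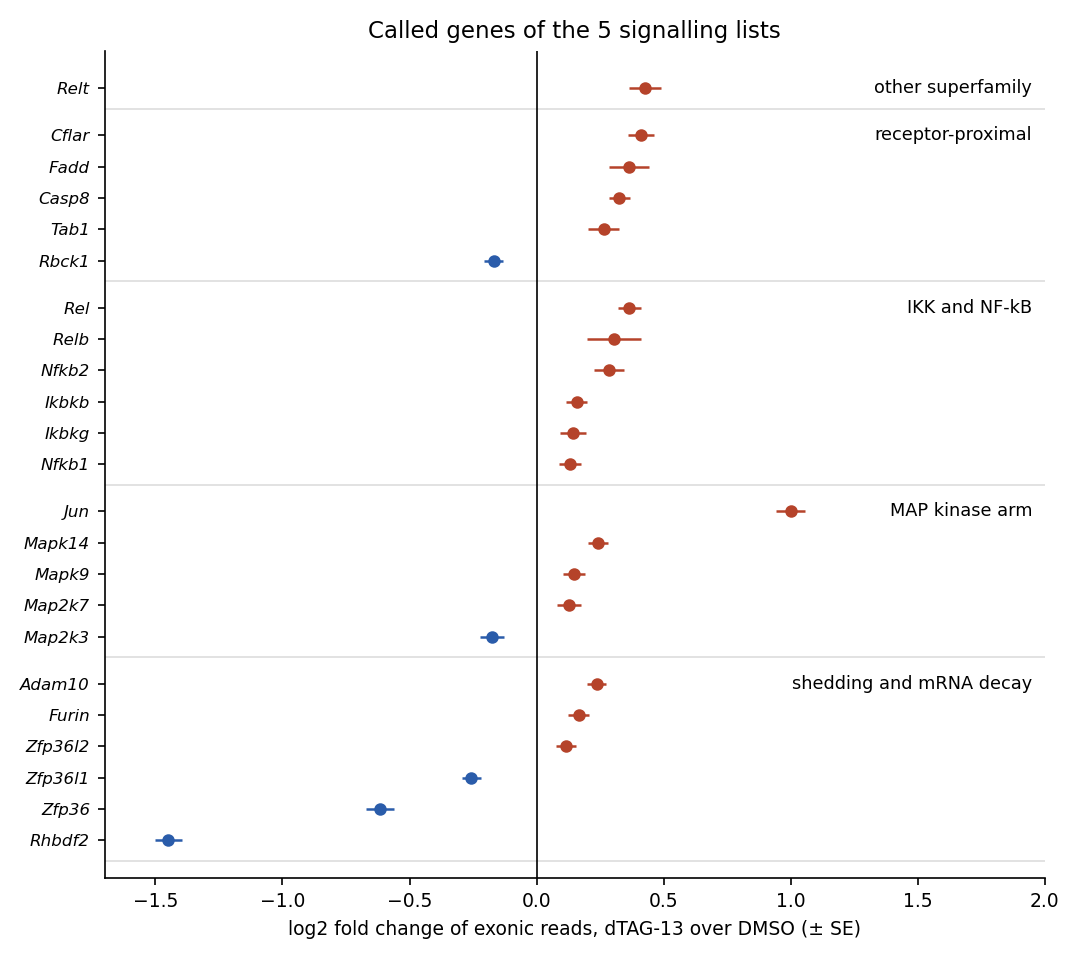
Points give the log2 fold change of exonic reads, dTAG-13 over DMSO, with SE bars, of the 23 called genes among 55 tested in 5 lists of genes that act with the TNF family. Rhbdf2 at -1.45 and Jun at 1.00 are the ends of the range, and the 6 called genes of the IKK and NF-kB list all lie above 0.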

How the data were processed

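Per the labels' protocols, ribosomal RNA was depleted from total RNA and strand-specific libraries were made, 4 for dTAG-13 and 4 for DMSO. The authors deposited counts of reads per gene over exons and over whole genes. The submitters' processing notes name STAR 2.7.4a, Subread 2.0.0 with featureCounts, DESeq2 and SAMtools 1.10, with mm10 and GRCm38.p4 as builds. Sources used here do not give the annotation release or the counting's strand setting. The authors' deposited table holds log2 fold changes with standard errors, adjusted p-values and mean normalized counts (a signal per gene) for exonic and intronic reads, per the file headers. It was used for gene names and its calls at an adjusted p below 0.05.

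Intronic counts were whole-gene minus exon counts, none of them negative. The test over all genes was that of edgeR 4.0.16 under R 4.3.3 (quasi-likelihood F test, TMM factors, filterByExpr with minimum count 10 and minimum total 15). The p-values were adjusted by Benjamini-Hochberg over all tested genes, and only the members, their pathway lists and Ebf1 are printed. The difference of exonic and intronic change was tested as an interaction with the library as a block. The tests were checked on simulated data. Standard errors are the log2 fold change divided by the root of F. CPM are shares of a library, so RNA per cell is not measured. Over all tested genes this depth gave a median log2 standard error of 0.07 for exonic change, 0.11 for intronic change and 0.12 for the difference.

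The members, gene lists, tests and alternatives were chosen with earlier results of these data known. Named are all members, with values per library for called members that changed by at least 0.5 on the log2 scale or whose ligand or receptor was also tested, and of each pathway list the 4 genes of smallest p at most. Added by name after their values were seen were Nfkbia, Relb, Ikbkg, Adam17, Zfp36l2, Furin, Pcsk7 and Cd40. The changes of Ebf1 and values per library of Traf3, Tnfsf9, Tnfrsf13b and Tnfrsf13c were also added then. Levels per length use exons of GENCODE vM21 on GRCm38, and start-site sequences are RefSeq's on GRCm38.p6. Between replicates chi-square per degree of freedom was 4.72 to 13.3, so no library repeated another. Alternatives were DESeq2 1.42.0, its size factors, filters on low counts, whole-gene counts, a test against 1.5-fold, a replicate block and leaving out each library.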

Additional observations from a re-analysis of the deposited data

Results flagged for a closer look

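In 8 of 118 sets of 4 libraries, a member's highest or lowest library lay farther from the other 3 than Dixon's 95% limit allows, where chance gives about 1 in 20. In exonic reads after dTAG-13, Traf3ip2 had 22.6 CPM in replicate 3 while the others had 20.6 to 21.0 CPM. Tnfrsf14 had 11.2 CPM in dTAG-13 replicate 1 beside 13.2 to 13.4 CPM in the others. In the same replicate Tnfrsf18 had 0.299 CPM beside 0.657 to 0.701 CPM, and Tnfrsf9 had 0.190 CPM beside 0.389 to 0.429 CPM. Tnfrsf4 had 2.11 exonic CPM in DMSO replicate 1 beside 1.24 to 1.33 CPM in the other DMSO libraries. In intronic reads Traf7 had 84.4 CPM in dTAG-13 replicate 2 beside 69.0 to 70.2 CPM. Tnfrsf21 had 287 intronic CPM in dTAG-13 replicate 1 beside 296 to 298 CPM, and Tnfrsf4 had 0.374 CPM in dTAG-13 replicate 3 beside 1.19 to 1.35 CPM. Of these members, only Traf3ip2 was called in exonic reads and only Tnfrsf9 in intronic reads.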

How the results depend on the processing

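The 13 members called in exonic reads were called in the same direction with DESeq2, with its size factors in edgeR and with either other filter on low counts. The count was 10 to 14 with 1 library left out, 12 with whole-gene counts and 3 against a change of 1.5-fold. The pathway count of 23 became 19 to 23 with 1 library left out and 2 against 1.5-fold. Against 1.5-fold 3.13% of all tested genes were called. The intronic count of 9 became 5 to 8 with 1 library left out and was 5 without DMSO replicate 1. Replicate numbers did not pair the libraries (correlations of same-numbered deviations of -0.024 to 0.045), and with the replicate block the counts were 13 in exonic and 8 in intronic reads.

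Of single members 17 results changed sign under some setting, in 39 values of which 0 were called. With 1 library left out, exonic log2 fold changes ranged from -0.23 to 0.20 for Tnfrsf18, -0.0022 to 0.12 for Tnfrsf22, -0.070 to 0.031 for Traf3ip1, -0.024 to 0.10 for Tnfsf10 and -0.093 to 0.015 for Tnfaip1. Intronic ones ranged from -0.055 to 0.034 for Tnfrsf26, -0.28 to 0.48 for Tnfsf13b, -0.066 to 0.013 for Tnfaip1, -0.055 to 0.16 for Traf3ip1, -0.044 to 1.03 for Tnfrsf4, -0.18 to 0.10 for Tnfrsf13b and -0.12 to 0.080 for Traf7. Exonic minus intronic differences ranged from -0.061 to 0.064 for Tnfrsf1b, -0.088 to 0.081 for Traf4, -0.18 to 0.18 for Tnf, -0.033 to 0.073 for Traf3 and -0.97 to 0.73 for Tnfrsf9. Exonic Tnfrsf18 was 0.0084 with the replicate block and Traf3ip1 0.023 in whole-gene counts. With whole-gene scaling factors the difference was 0.036 for Tnfrsf1b and 0.023 for Traf4. The cause was not tested. Depth limits Lta, Tnfrsf9, Tnfrsf18 and Tnfrsf23, with at most 62 exonic reads per library.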
